A study of Homo sapiens with 8 samples.

Results

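The replication-dependent histone genes were described in HEK293F cells in which the RNA helicase MOV10 had been raised or lowered. Members were taken by name, as every symbol of the deposited count table that starts with HIST1H, HIST2H, HIST3H or HIST4H, which gave 73 of 23368 symbols. By class, 6 encode H1, 18 H2A, 20 H2B, 14 H3 and 15 H4. By cluster, 56 are in HIST1, 13 in HIST2, 3 in HIST3 and 1 in HIST4. HIST1H2APS1, HIST2H2BA and HIST2H2BC carry such names but are transcribed pseudogenes in RefSeq.

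HEK293F is a subline of HEK293, an established human embryonic kidney line. RNA was sequenced in 3 groups: 3 libraries of cells transfected once with a plasmid for myc-tagged MOV10 (overexpression), 2 libraries of cells given siRNA against MOV10 (knockdown, replicates 2 and 3) and 3 libraries of cells given an irrelevant siRNA (control). Both siRNAs were given 3 times, 24 h apart. No group with an empty plasmid was used here, so the rise of MOV10, the delivery of a plasmid and the lack of siRNA cannot be told apart in the overexpression libraries. The labels do not say whether libraries of one group were grown separately, so each p-value is relative to a spread between libraries that could be technical.

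Replication-dependent histone genes supply the core histones H2A, H2B, H3 and H4, which wrap DNA into nucleosomes, and the linker histone H1, which binds the DNA between them. They have no introns, are transcribed mainly in S phase and lie in clusters in which H2A and H2B genes often share a promoter region. Their mRNA normally ends without a poly(A) tail, just past a conserved stem-loop that is bound by SLBP and cut with the help of the U7 snRNP, and some of these genes also give longer, polyadenylated transcripts by using a signal beyond the stem-loop.

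The stem-loop is the sequence the family shares, and a search of GENCODE 29 transcripts for GGNNCTTNTCAGNGCC on the transcript strand found it in 25 of 73 members (34.2%) and in 45 of 57133 gene names (0.0788%). Many members are annotated as coding sequence alone, so a missing match says only that these letters are not in the annotated transcript. The 25 matches had 4 forms, each shown here in 1 member with the 16-base stem-loop in capitals and 5 bases on each side. The first form stood in 17 members, the second in 5 members, each of them an H4 gene, the third in 2 and the last in 1.
HIST2H2BE: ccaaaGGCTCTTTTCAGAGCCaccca
HIST1H4H: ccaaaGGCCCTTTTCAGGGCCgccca
HIST1H2AG: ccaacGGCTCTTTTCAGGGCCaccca
HIST1H3E: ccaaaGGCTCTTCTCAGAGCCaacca

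Promoter sequences, 250 bases before to 50 bases after the start of each gene (RefSeq, GRCh38.p14), were found for 65 of 73 members. The octamer ATTTGCAT, the site known for OCT1 in H2B promoters, stood on either strand in 14 of 18 H2B and 11 of 16 H2A promoters, in 0 of 6 H1, 0 of 12 H3 and 0 of 13 H4 promoters, and in 1.77% of 35116 promoters overall. CCAAT stood in every H1, H2A, H2B and H3 promoter but in 3 of 13 H4 promoters, against 34.6% of all promoters. TATAAA stood in 43 of 65 (66.2%), against 11.5%. Adjacent H2A and H2B windows overlap and therefore share sites, and a match here is a description of letters, not of binding. A pair of H2B promoters is printed because both hold the octamer at nearly the same distance from the start, while the log2 fold changes of their genes with overexpression were -0.41 (not called) and 0.38 (called). Capitals mark CCAAT or its complement, the octamer and TATAAA in the 140 bases before the start: HIST1H2BG at chr6:26216689-26216828 and HIST1H2BK at chr6:27146856-27146995 (GRCh38.p14, both on the minus strand).
HIST1H2BG: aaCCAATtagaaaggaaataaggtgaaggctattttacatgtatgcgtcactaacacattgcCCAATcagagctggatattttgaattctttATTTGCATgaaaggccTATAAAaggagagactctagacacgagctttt
HIST1H2BK: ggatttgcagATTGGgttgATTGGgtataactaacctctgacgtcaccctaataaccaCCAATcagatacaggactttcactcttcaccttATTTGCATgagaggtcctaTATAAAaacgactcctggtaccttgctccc

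MOV10 followed the labels in every library, with 2970, 2920 and 2450 CPM with overexpression, 50.6 and 55.5 CPM with knockdown, and 76.8, 76.4 and 91.2 CPM in control (CPM, read counts scaled to a common library size with TMM factors). Library totals were 12.7 M to 23.4 M reads with overexpression, 32.8 M and 19.4 M with knockdown and 15 M to 22.7 M in control. HEK293 markers (KRT8, KRT18, VIM, NEFL, NEFM, PAX2, LIN28B and IGF2BP1) were all detected, while PTPRC, CD3E, ALB, APOA1, PECAM1 and CDH5, markers of other cell types, stayed under 1 CPM in every library. Together these 6 summed to 0.69 to 1.25 CPM with overexpression, 1.01 and 1.52 CPM with knockdown and 0.71 to 1.09 CPM in control. Without ALB the sums were 0.23 to 0.582 CPM with overexpression, 0.318 and 0.666 CPM with knockdown and 0.467 to 0.569 CPM in control. Markers with 0 reads numbered 2 to 3 of the 6 with overexpression, 1 in each knockdown library and 0 to 1 in control. ALB, the one of them tested, had 0.417, 0.671 and 0.46 CPM with overexpression, 0.856 and 0.691 CPM with knockdown and 0.222, 0.518 and 0.334 CPM in control. It was called higher with knockdown, at a log2 fold change of 1.16 ± 0.38 (edgeR adjusted p = 0.0207), and its part in the histone values was not tested. Histone members took 0.0446% to 0.0484% of reads with overexpression, 0.0386% and 0.0481% with knockdown and 0.0235% to 0.0245% in control.

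Most tested histone genes were called higher with overexpression and most were called higher with knockdown, and none was called lower than control in either comparison. Of the 73 members, 43 passed the filter on low counts. Among these, 27 rose with overexpression (median log2 fold change 0.92, range -0.46 to 2.20) and 33 rose with knockdown (median 0.98, range -0.49 to 1.72), by edgeR's quasi-likelihood test at a Benjamini-Hochberg adjusted p under 0.05 over 15254 genes. The background was 25.2% of all tested genes called higher and 24.1% lower with overexpression, and 19.9% higher and 19.1% lower with knockdown, with medians of 0.01 and -0.001. At an unadjusted p under 0.05, 31 members were higher and 0 lower with overexpression, and 35 and 0 with knockdown. DESeq2 also called 0 lower in either comparison. The same control libraries serve both comparisons, so their results are not independent. The members passed the filter partly through the groups in which they were high, so these counts describe the 43 and not all 73.

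The knockdown count rests on one library more than the overexpression count does. Knockdown replicate 2 held more histone reads than replicate 3 in each class and in 36 of 43 tested members, with sums over all members of 501 and 397 CPM, against 246, 240 and 235 CPM in control. Without replicate 2 the knockdown libraries gave 17 members higher in place of 33, with the lone library assumed to vary like the other groups. Leaving out each library in turn kept 24 of the 27 overexpression calls and 17 of the 33 knockdown calls in every fit. In bulk RNA a larger share of cells that express histone genes and more histone RNA per cell cannot be told apart.

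**Figure D1:**
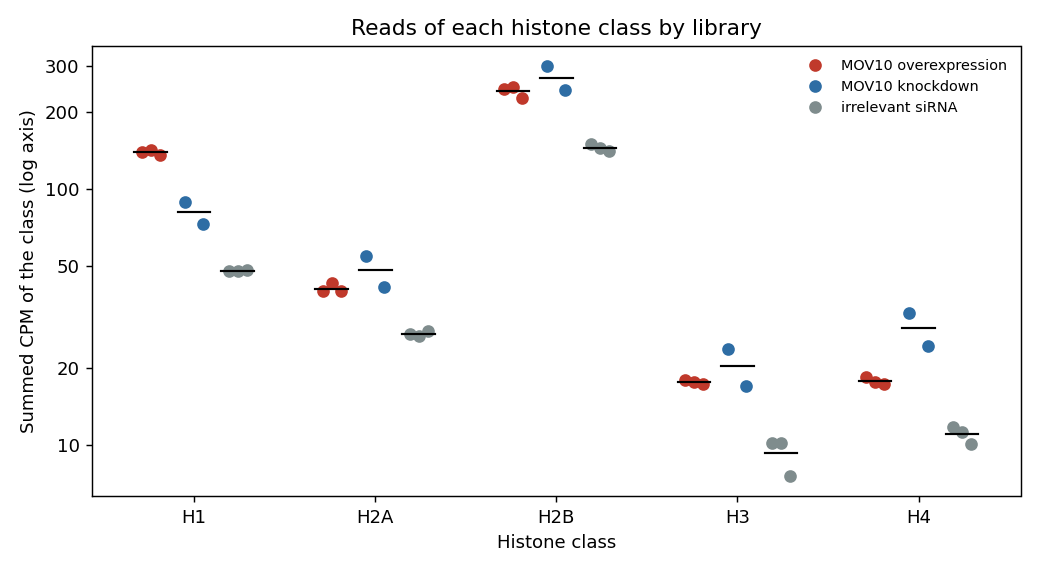
Summed CPM of each histone class in each library on a log axis, with overexpression, knockdown and control from left to right within a class. Points are libraries and black lines are group means. The H1 sum was 136 to 142 CPM with overexpression and stood above the 72.8 and 89.1 CPM of knockdown, whereas the H4 sum of 17.3 to 18.5 CPM with overexpression stood below the 24.5 and 32.9 CPM of knockdown; without HIST1H4H that order turns, at 9.55 to 10.7 CPM with overexpression and 6.54 and 8.97 CPM with knockdown.

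The H1 and H4 sums had the treatments in opposite order, and the H4 order was set by 1 gene, HIST1H4H. H1 reads summed to 139, 142 and 136 CPM with overexpression, 89.1 and 72.8 CPM with knockdown, and 48, 47.8 and 48.1 CPM in control. That was 2.9 times the control mean with overexpression and 1.69 times with knockdown, with no overlap between any of the groups. H4 reads had the opposite order, at 18.5, 17.7 and 17.3 CPM with overexpression, 32.9 and 24.5 CPM with knockdown, and 11.8, 11.3 and 10.1 CPM in control. These were 1.61 and 2.6 times control, and the groups again did not overlap. Without HIST1H4H the other H4 genes summed to 9.55, 10.7 and 10.1 CPM with overexpression, 8.97 and 6.54 CPM with knockdown, and 4.57, 3.99 and 4.28 CPM in control, so that overexpression lay above knockdown as in H1 (2.36 and 1.81 times control). H2B, the class with the most reads, summed to 244, 250 and 225 CPM with overexpression, 300 and 242 CPM with knockdown, and 149, 144 and 141 CPM in control (1.65 and 1.87 times). H2A was at 1.5 and 1.77 times control and H3 at 1.89 and 2.18 times. In these 3 classes both treatments lay above control and overlapped each other.

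These sums were led by few genes. HIST1H1C, HIST1H2BK, HIST2H2BE and HIST1H2BD together took 66.8% to 73.8% of the histone reads of a library. HIST1H1C took 29.1% to 30.1% with overexpression, 17% and 17.7% with knockdown and 18.8% to 19.8% in control. HIST1H2BK took 23.1% to 24.8% with overexpression, 31.8% and 33.3% with knockdown and 34% to 36.6% in control. Without HIST1H1C the remaining H1 genes stood at 2.81 and 1.86 times control with overexpression and knockdown, and without HIST1H2BK the remaining H2B genes at 2.16 and 2.08 times. Leaving out HIST3H2A gave 1.61 and 2.01 times for H2A, and leaving out HIST1H3H gave 1.95 and 2.32 times for H3.

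By cluster, HIST1 reads were 1.91 times control with overexpression and 1.87 times with knockdown, HIST2 reads 2 and 1.97 times, and HIST3 reads 1.53 and 1.61 times. Single genes led the smaller clusters. In the overexpression means HIST2H2BE made up 51.2 of 67.9 CPM of HIST2, and HIST3H2A 18.1 of 24.1 CPM of HIST3. HIST1 had 22 of 35 tested members higher with overexpression and 26 of 35 with knockdown. HIST2 had 3 and 4 of 5, and HIST3 had 2 and 2 of 2. Of all tested genes, 25.2% were called higher with overexpression and 19.9% with knockdown. HIST4 holds HIST4H4 alone, an H4 gene away from the other clusters, which was not called with overexpression. No cluster had a member called lower than control.

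The linker histone genes had the highest median change with overexpression of the 5 classes. Of 4 tested H1 members, 3 rose with overexpression and 3 with knockdown, with median log2 fold changes of 1.47 and 0.87. The overexpression count and median include HIST1H1D, which passed the filter on low counts through its overexpression libraries alone. HIST1H1C, which encodes H1.2, had 134, 138 and 131 CPM with overexpression, 85.2 and 70.1 CPM with knockdown, and 46.4, 45.9 and 46.4 CPM in control. All 3 groups stood apart, in the order overexpression, knockdown, control. Its log2 fold change, given with its SE here and for the genes that follow, was 1.54 ± 0.06 (edgeR adjusted p = 2.98e-13) with overexpression, 0.76 ± 0.07 (edgeR adjusted p = 6.35e-08) with knockdown and 0.78 ± 0.07 (edgeR adjusted p = 1e-08) for overexpression over knockdown. HIST1H1E, the gene of H1.4, had 2.79, 2.73 and 2.91 CPM with overexpression, 2.6 and 1.86 CPM with knockdown, and 0.887, 1.09 and 1.27 CPM in control. The overexpression libraries were highest and the control libraries lowest, with no overlap. The fold changes were 1.40 ± 0.21 (edgeR adjusted p = 1.61e-05) and 1.12 ± 0.23 (edgeR adjusted p = 0.000619) against control, and the difference between treatments of 0.28 ± 0.19 did not pass.

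HIST1H1D, the gene of H1.3, had 1.63, 1.07 and 1.15 CPM with overexpression, 0.285 and 0.0532 CPM with knockdown, and 0.266, 0.362 and 0.2 CPM in control. It was high in the 3 overexpression libraries alone, with 39, 24 and 15 reads there, against 9 and 1 with knockdown and 6, 7 and 3 in control. Those libraries alone carried it past the filter on low counts, so it was tested only because it was high there. It rose by 2.20 ± 0.37 (edgeR adjusted p = 5.69e-05) with overexpression, was at -0.49 ± 0.60 with knockdown (not called) and differed between the treatments by 2.69 ± 0.42 (edgeR adjusted p = 1.67e-05). HIST1H1T, the testis H1 gene, had 0.792, 0.582 and 0.537 CPM with overexpression, 0.698 and 0.797 CPM with knockdown, and 0.399, 0.466 and 0.2 CPM in control. Both treatments lay above every control library, but the counts were small, at 3 to 22 reads. It was at 0.82 ± 0.37 with overexpression (not called) and at 0.98 ± 0.37 (edgeR adjusted p = 0.0416) with knockdown. Without knockdown replicate 2 the knockdown calls of HIST1H1E (0.81) and HIST1H1T (1.09) were lost, and that of HIST1H1T was also lost without knockdown replicate 3 (0.91), control replicate 1 (1.06) or control replicate 3 (0.76), with DESeq2 (1.03) and with library totals in place of TMM (0.94).

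Of 11 tested H2A members, 6 rose with overexpression and 7 with knockdown, with medians of 0.72 and 0.69. HIST3H2A, the H2A gene of the HIST3 cluster, had 17.3, 19.4 and 17.6 CPM with overexpression, 22 and 17.7 CPM with knockdown, and 11.8, 13 and 14.6 CPM in control. Both treatments lay above control and overlapped each other. It rose by 0.48 ± 0.10 (edgeR adjusted p = 0.000454) with overexpression and 0.62 ± 0.10 (edgeR adjusted p = 8.12e-05) with knockdown. HIST1H2AC, a gene that also gives polyadenylated transcripts, had 9.55, 10.6 and 10.7 CPM with overexpression, 17.6 and 12.1 CPM with knockdown, and 7.14, 5.95 and 5.21 CPM in control. Knockdown was highest and control lowest, with no overlap. Its fold changes were 0.72 ± 0.14 (edgeR adjusted p = 0.000286) and 1.29 ± 0.14 (edgeR adjusted p = 5.58e-07), and the difference between treatments was -0.57 ± 0.13 (edgeR adjusted p = 0.000828).

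HIST1H2AE had 1.17, 0.985 and 0.92 CPM with overexpression, 3.71 and 2.55 CPM with knockdown, and 1.42, 1.81 and 1 CPM in control. Knockdown was above every other library, and overexpression overlapped the lower part of control. The fold change was -0.46 ± 0.27 with overexpression (not called), 1.17 ± 0.22 (edgeR adjusted p = 0.000312) with knockdown and -1.63 ± 0.23 (edgeR adjusted p = 6.67e-06) between the treatments. HIST1H2AI had the reverse pattern, with 2.46, 2.69 and 2.38 CPM with overexpression, 1.24 and 0.904 CPM with knockdown, and 0.621, 0.984 and 1.14 CPM in control. Overexpression stood above every knockdown and control library, which overlapped. It rose by 1.51 ± 0.23 (edgeR adjusted p = 1.8e-05) with overexpression, was at 0.33 ± 0.29 with knockdown (not called) and differed by 1.18 ± 0.23 (edgeR adjusted p = 0.000176). Only 37.7% of the 50-base words of its annotated transcript are unique to it, so reads shared with near-identical copies make its count less certain.

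HIST1H2AG had 2, 1.43 and 1.84 CPM with overexpression, 2.82 and 2.07 CPM with knockdown, and 1.77, 1.66 and 1.14 CPM in control. Overexpression overlapped control, and knockdown lay above both. Its fold changes were 0.17 ± 0.23 with overexpression (not called), 0.69 ± 0.22 (edgeR adjusted p = 0.0175) with knockdown and -0.52 ± 0.21 (edgeR adjusted p = 0.0422) between the treatments. HIST1H2AM had 2.21, 2.15 and 1.69 CPM with overexpression, 2.19 and 1.81 CPM with knockdown, and 1.24, 0.88 and 0.935 CPM in control. Both treatments lay above control and overlapped each other, at 0.99 ± 0.22 (edgeR adjusted p = 0.000997) and 0.97 ± 0.23 (edgeR adjusted p = 0.00255), though 13.7% of its words are unique. Without knockdown replicate 2 the knockdown calls of HIST1H2AE (0.82), HIST1H2AG (0.40) and HIST1H2AM (0.80) were lost, as were the differences between treatments of HIST1H2AC (-0.25) and HIST1H2AG (-0.24). HIST1H2AG also lost its knockdown call without control replicate 3 (0.55) and its difference without overexpression replicate 2 (-0.37). With DESeq2 both were lost (0.68 and -0.51), and with library totals the difference was lost (-0.44).

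H2B had the most members called with knockdown, 13 of 14, against 10 of 14 with overexpression, at medians of 1.07 and 0.72. Among the 13, HIST1H2BE passed the filter on low counts through its knockdown libraries alone, so it was tested only because it was high there. HIST1H2BK, the member with the most reads in control, had 114, 115 and 100 CPM with overexpression, 159 and 132 CPM with knockdown, and 86.7, 81.7 and 85.9 CPM in control. The groups stood apart, with knockdown highest and control lowest. It rose by 0.38 ± 0.07 (edgeR adjusted p = 7.92e-05) with overexpression, the smallest called change of the class, and by 0.79 ± 0.07 (edgeR adjusted p = 5.23e-08) with knockdown, and differed by -0.41 ± 0.07 (edgeR adjusted p = 5.69e-05). Of its words, 25.9% are unique. HIST2H2BE, from the HIST2 cluster, had 51, 53.6 and 49 CPM with overexpression, 53.2 and 40.8 CPM with knockdown, and 25.3, 26.7 and 22.2 CPM in control. Both treatments were above control in every library and overlapped each other. Its fold changes were 1.05 ± 0.09 (edgeR adjusted p = 1.05e-08) and 0.93 ± 0.09 (edgeR adjusted p = 1.87e-07).

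HIST1H2BD had 40.1, 39.6 and 38.7 CPM with overexpression, 36.9 and 27.3 CPM with knockdown, and 14.3, 13.5 and 12.6 CPM in control. Overexpression lay above knockdown, and both lay above control. It had the largest overexpression change of the H2B class, 1.55 ± 0.09 (edgeR adjusted p = 1.62e-10), with 1.26 ± 0.10 (edgeR adjusted p = 1.12e-08) for knockdown. The difference of 0.28 ± 0.09 (edgeR adjusted p = 0.0127) was lost without knockdown replicate 3 (0.10). HIST1H2BJ had 4.92, 5.95 and 5.14 CPM with overexpression, 7.23 and 6.81 CPM with knockdown, and 3.24, 3.78 and 3.47 CPM in control. Here knockdown lay above overexpression and both above control, at 0.62 ± 0.14 (edgeR adjusted p = 0.000786) and 1.02 ± 0.14 (edgeR adjusted p = 7.46e-06) against control. The difference of -0.40 ± 0.13 (edgeR adjusted p = 0.0104) was lost without knockdown replicate 2 (-0.35) or overexpression replicate 1 (-0.32), and with DESeq2 (-0.40).

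HIST2H2BF had 13, 12.2 and 11.8 CPM with overexpression, 15 and 11.1 CPM with knockdown, and 6.56, 6.37 and 5.68 CPM in control. Control was lowest, and the treatments overlapped each other, at 0.99 ± 0.12 (edgeR adjusted p = 1.09e-06) and 1.09 ± 0.12 (edgeR adjusted p = 8.98e-07). HIST3H2BB had 5.59, 6.89 and 5.52 CPM with overexpression, 6.21 and 4.63 CPM with knockdown, and 2.93, 2.49 and 2.27 CPM in control. It followed the same order, at 1.22 ± 0.16 (edgeR adjusted p = 3.59e-06) and 1.10 ± 0.17 (edgeR adjusted p = 4.33e-05). HIST1H2BC had 1.54, 1.75 and 1.84 CPM with overexpression, 2.35 and 2.45 CPM with knockdown, and 1.06, 1.4 and 0.668 CPM in control. Knockdown lay above overexpression and both above control, at 0.65 ± 0.24 (edgeR adjusted p = 0.0289) and 1.15 ± 0.23 (edgeR adjusted p = 0.000584). The overexpression call was lost without overexpression replicate 2 (0.63), control replicate 1 (0.65) or control replicate 3 (0.46), and with DESeq2 (0.67). The difference between treatments, -0.50 ± 0.21 (edgeR adjusted p = 0.0485), was lost in 5 of the 8 fits that left out 1 library, at -0.42 to -0.53, and with DESeq2 (-0.50) and library totals (-0.41).

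**Figure D2:**
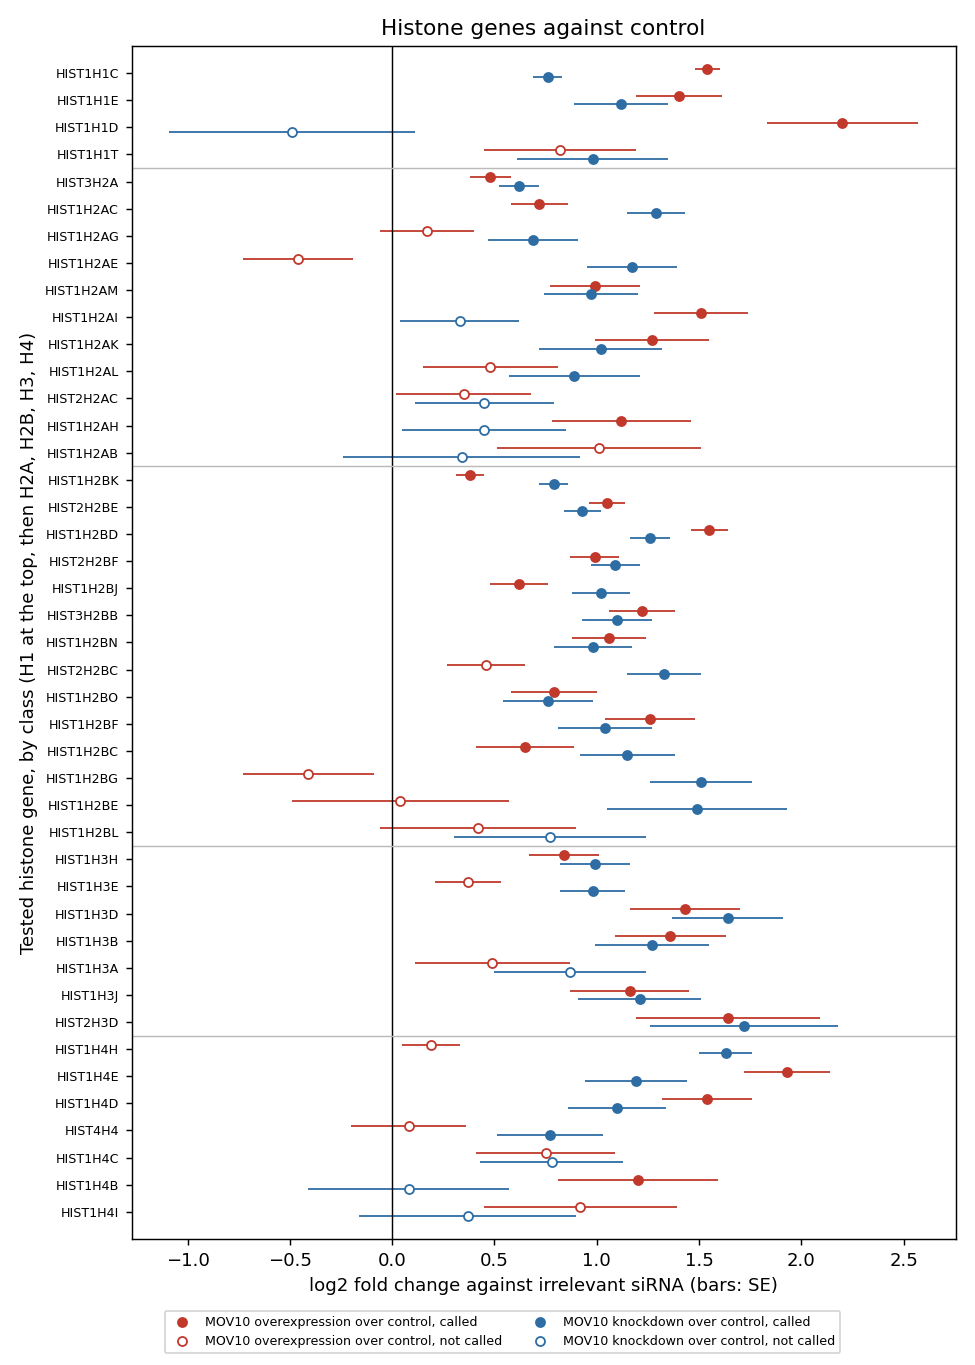
Log2 fold change of each of the 43 tested histone genes against control, by class from H1 at the top to H4, with overexpression above knockdown in each row. Bars are standard errors and filled points passed the edgeR test. No filled point lies below 0, and HIST1H4H and HIST1H2BG have a filled knockdown point far to the right of an open overexpression point.

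In the H3 class, 5 of 7 tested members rose with overexpression and 6 of 7 with knockdown, with medians of 1.16 and 1.21. HIST1H3H had 6.17, 5.55 and 5.52 CPM with overexpression, 7.67 and 4.73 CPM with knockdown, and 3.19, 3.26 and 3.27 CPM in control. Each treated library lay above control, at 0.84 ± 0.17 (edgeR adjusted p = 0.000321) and 0.99 ± 0.17 (edgeR adjusted p = 0.000122). HIST1H3E, the one member with the last stem-loop form shown, had 3.21, 3.22 and 2.84 CPM with overexpression, 5.14 and 4.25 CPM with knockdown, and 2.35, 2.54 and 2.34 CPM in control. Knockdown stood above all others, and overexpression stood above control by a small margin. It was at 0.37 ± 0.16 with overexpression (not called, though called with library totals at 0.42), 0.98 ± 0.16 (edgeR adjusted p = 5.39e-05) with knockdown and -0.61 ± 0.15 (edgeR adjusted p = 0.00154) between the treatments. HIST1H3D had 3.79, 3.31 and 3.14 CPM with overexpression, 4.19 and 3.72 CPM with knockdown, and 1.64, 1.66 and 0.267 CPM in control. Control replicate 3 was far below the other control libraries, with 4 reads against 37 and 32. The fold changes were 1.43 ± 0.27 (edgeR adjusted p = 0.000171) and 1.64 ± 0.27 (edgeR adjusted p = 8.02e-05), and they were called without that library too. RefSeq places this gene over HIST1H2AD on the same strand, and 0% of its words are unique, so its reads cannot be assigned with certainty.

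HIST1H3B had 2.08, 2.15 and 3.14 CPM with overexpression, 2.7 and 1.49 CPM with knockdown, and 1.02, 0.984 and 0.668 CPM in control. Control was again lowest and the treatments overlapped, at 1.36 ± 0.27 (edgeR adjusted p = 0.000299) and 1.27 ± 0.28 (edgeR adjusted p = 0.00137). HIST1H3J had 1.29, 1.03 and 0.92 CPM with overexpression, 1.24 and 1.01 CPM with knockdown, and 0.488, 0.466 and 0.534 CPM in control. It was again above control in both treatments, at 1.16 ± 0.29 (edgeR adjusted p = 0.00256) and 1.21 ± 0.30 (edgeR adjusted p = 0.00336). HIST1H3A had 0.834, 1.61 and 0.997 CPM with overexpression, 1.87 and 0.957 CPM with knockdown, and 1.2, 0.828 and 0.267 CPM in control. Its groups overlapped, and neither 0.49 ± 0.38 with overexpression nor 0.87 ± 0.37 with knockdown was called. The knockdown value passed without knockdown replicate 3 (1.18), control replicate 1 (1.37) or overexpression replicate 2 or 3 (0.87 and 0.88). The knockdown calls of HIST1H3H (0.54), HIST1H3B (0.70) and HIST1H3J (1.02) were lost without knockdown replicate 2, and so was the difference of HIST1H3E (-0.44).

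The H4 class was split. Of 7 tested members, 3 rose with overexpression and 4 with knockdown, with medians of 0.92 and 0.78. Between the treatments 2 were higher and 2 lower with overexpression. HIST1H4B and HIST1H4I passed the filter on low counts through their overexpression libraries alone. They were tested only because they were high there, and HIST1H4I (0.92, not called) is itself the overexpression median. The order of the medians therefore depends on the filter. HIST1H4H, the member with the most H4 reads, had 8.92, 7.03 and 7.29 CPM with overexpression, 24 and 17.9 CPM with knockdown, and 7.23, 7.3 and 5.81 CPM in control. Knockdown was above every other library, and overexpression overlapped control. It was at 0.19 ± 0.14 with overexpression (not called), rose by 1.63 ± 0.13 (edgeR adjusted p = 7.68e-09) with knockdown and differed by -1.44 ± 0.12 (edgeR adjusted p = 1.12e-08) between the treatments. HIST1H4E had 3.71, 4.43 and 3.91 CPM with overexpression, 2.76 and 1.86 CPM with knockdown, and 1.29, 1.09 and 0.668 CPM in control. Here overexpression was highest and control lowest, with no overlap. It rose by 1.93 ± 0.21 (edgeR adjusted p = 4.63e-07) with overexpression and 1.19 ± 0.25 (edgeR adjusted p = 0.000799) with knockdown, and differed by 0.74 ± 0.19 (edgeR adjusted p = 0.00222).

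HIST1H4E and HIST1H4H thus had opposite differences between the treatments, and their promoters share most of their bases in this window. Over the 140 bases before the start, 110 bases (78.6%) were the same without gaps, against a median of 36.8% over the 78 pairs of 13 H4 promoters, of which 2 pairs were closer. None of the motifs searched was found in either window. Both genes also have the H4 form of the stem-loop core. The promoters are shown with the 30 differing bases in capitals: HIST1H4E at chr6:26204470-26204609 on the plus strand and HIST1H4H at chr6:26285535-26285674 on the minus strand (RefSeq, GRCh38.p14).
HIST1H4E: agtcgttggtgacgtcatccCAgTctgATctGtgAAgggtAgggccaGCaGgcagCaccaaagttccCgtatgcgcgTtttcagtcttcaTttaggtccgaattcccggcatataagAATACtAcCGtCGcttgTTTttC
HIST1H4H: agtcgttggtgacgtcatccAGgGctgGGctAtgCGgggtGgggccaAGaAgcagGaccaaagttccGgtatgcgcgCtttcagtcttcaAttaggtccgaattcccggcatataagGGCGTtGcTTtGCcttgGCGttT

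The remaining H4 genes were low. HIST1H4D had 2.38, 3.04 and 2.38 CPM with overexpression, 1.87 and 2.02 CPM with knockdown, and 0.887, 1.04 and 0.735 CPM in control. Overexpression lay above knockdown and both above control, at 1.54 ± 0.22 (edgeR adjusted p = 7.32e-06) and 1.10 ± 0.24 (edgeR adjusted p = 0.00119). HIST4H4 had 1.08, 0.94 and 1.23 CPM with overexpression, 2.06 and 1.17 CPM with knockdown, and 1.06, 0.88 and 1.07 CPM in control. Knockdown replicate 2 stood high, while knockdown replicate 3 lay within the range of the overexpression libraries. It was at 0.08 ± 0.28 with overexpression (not called), 0.77 ± 0.26 (edgeR adjusted p = 0.025) with knockdown and -0.68 ± 0.26 (edgeR adjusted p = 0.0281) between the treatments. Without knockdown replicate 2 the last 2 values were 0.22 and -0.14 and neither passed, and without control replicate 2 the knockdown call was lost (0.68). The difference was also lost without overexpression replicate 1 (-0.70) or replicate 2 (-0.58), and with library totals (-0.60). DESeq2 called neither the knockdown change (0.72) nor the difference (-0.64).

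HIST1H4C had 0.834, 0.627 and 0.92 CPM with overexpression, 0.888 and 0.638 CPM with knockdown, and 0.399, 0.362 and 0.668 CPM in control. Neither 0.75 ± 0.34 with overexpression nor 0.78 ± 0.35 with knockdown was called, though the overexpression value passed without overexpression replicate 2 (0.91) or control replicate 3 (1.01). HIST1H4B had 0.709, 0.671 and 0.537 CPM with overexpression, 0.254 and 0.372 CPM with knockdown, and 0.355, 0.155 and 0.334 CPM in control. Overexpression lay above every other library, at 1.2 ± 0.39 (edgeR adjusted p = 0.0142), and knockdown overlapped control, at 0.08 ± 0.49 (not called). The overexpression libraries alone carried this gene past the filter on low counts, so it was tested only because it was high there. The overexpression call was lost without overexpression replicate 1 (1.12) or control replicate 2 (0.91), and the difference of 1.12 ± 0.40 (edgeR adjusted p = 0.0213) without knockdown replicate 2 (0.81) or overexpression replicate 1 (1.04). With DESeq2 neither the overexpression change (1.2) nor the difference (1.08) passed. The knockdown call of HIST1H4E was lost without knockdown replicate 2 (0.81).

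The contrast of overexpression with knockdown tests whether the responses differ, since the control cancels. Of the 43 tested members, 6 were higher and 12 lower with overexpression, and 25 did not pass, against a background of 29.3% of all genes higher and 28.1% lower. At an unadjusted p under 0.05 there were 7 higher and 12 lower. With library totals in place of TMM there were 7 higher and 9 lower, a share of higher calls of 43.8% against 33.3%. By class, H1 had 2 higher and 0 lower, H2A 1 and 3, H2B 1 and 6, H3 0 and 1, and H4 2 and 2. Among the higher, HIST1H1D and HIST1H4B passed the filter on low counts through their overexpression libraries alone. Among the lower, HIST1H2BE passed it through its knockdown libraries alone. The counts without knockdown replicate 2 were 6 higher and 5 lower. Calls held with each library left out in turn for HIST1H1C, HIST1H1D, HIST1H2AI and HIST1H4E, higher with overexpression, and for HIST1H2AE, HIST1H2BG, HIST1H2BK, HIST1H4H and HIST2H2BC, lower. Differences that passed when 1 library was left out were those of HIST2H2BE (0.33 without knockdown replicate 2), of HIST1H2AH (1.15), HIST1H3H (-0.41), HIST2H2BF (-0.28) and HIST3H2A (-0.28) without knockdown replicate 3, and of HIST1H4D without overexpression replicate 1 (0.53) or 3 (0.48), which also passed with library totals (0.53).

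HIST1H2BG had the largest negative difference. It had 1.04, 0.716 and 0.307 CPM with overexpression, 3.14 and 2.5 CPM with knockdown, and 0.931, 0.932 and 1.2 CPM in control. Knockdown stood above every other library, and overexpression overlapped control at its lower end. It was at -0.41 ± 0.32 with overexpression (not called), 1.51 ± 0.25 (edgeR adjusted p = 7.15e-05) with knockdown and -1.92 ± 0.26 (edgeR adjusted p = 3.31e-06) between the treatments. HIST2H2BC, a pseudogene by RefSeq, had 2.25, 3.04 and 3.22 CPM with overexpression, 5.58 and 4.41 CPM with knockdown, and 2.17, 1.81 and 2.07 CPM in control. It was highest with knockdown, and overexpression was above control in every library. The values were 0.46 ± 0.19 with overexpression (not called, though called with library totals at 0.50), 1.33 ± 0.18 (edgeR adjusted p = 7.75e-06) with knockdown and -0.88 ± 0.17 (edgeR adjusted p = 0.000159) between the treatments. Both genes were singled out after their values were seen.

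**Figure D3:**
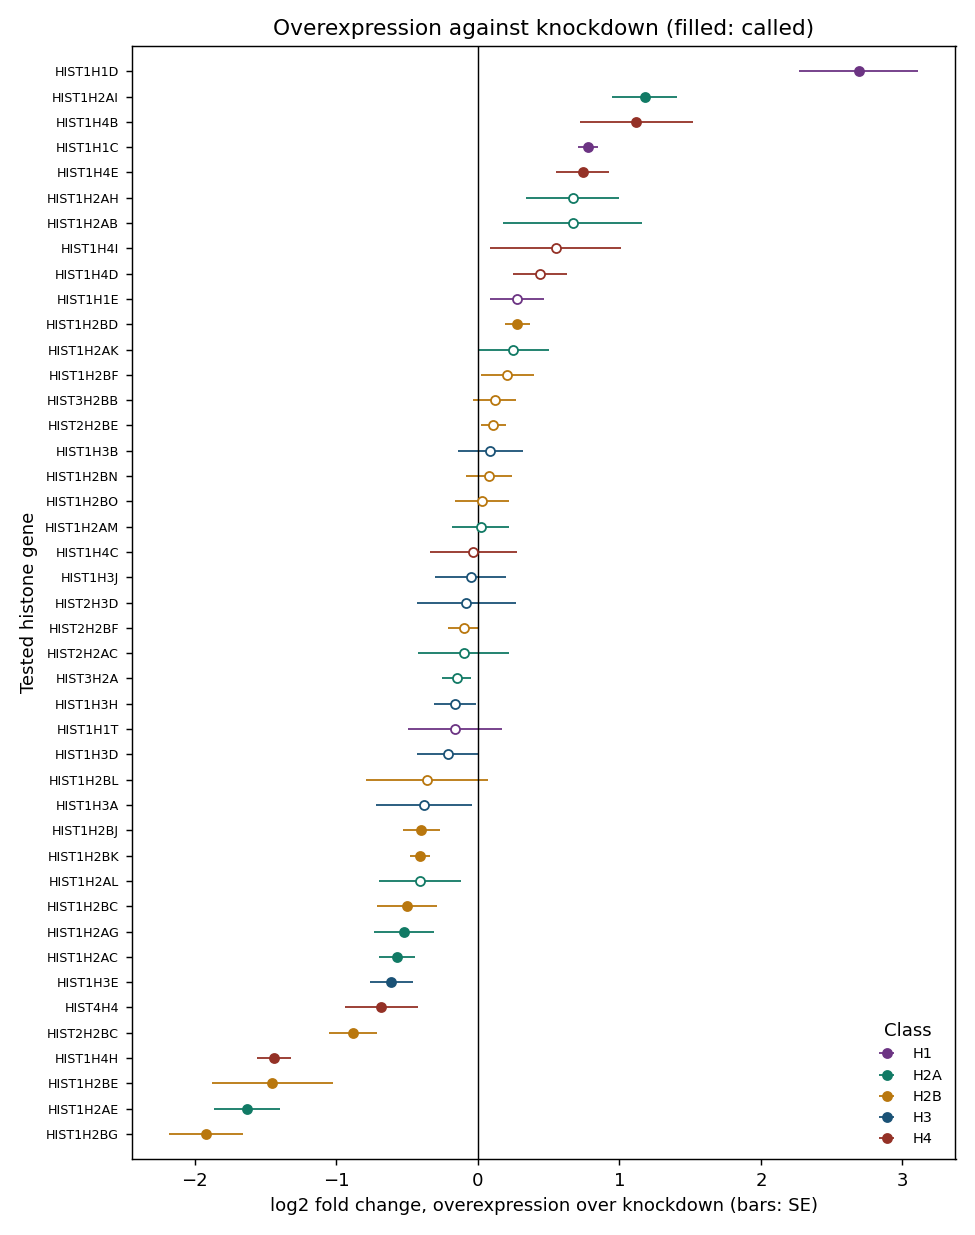
Log2 fold change of overexpression over knockdown for the 43 tested histone genes, in order of size and coloured by class. Bars are standard errors and filled points passed the edgeR test, 6 to the right of 0 and 12 to the left. HIST1H1D (2.69) and HIST1H2BG (-1.92) mark the ends, and HIST1H1D passed the filter on low counts through its overexpression libraries alone.

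H2A and H2B genes that start back to back allow a comparison within a shared promoter region. RefSeq gives 13 such pairs with starts 194 to 288 bases apart, and both genes were tested in 9. The neighbours had the same sign in 9 of 9 pairs with overexpression, 9 of 9 with knockdown and 5 of 9 between the treatments. Of the 43 tested members, 41 were positive with overexpression and 42 with knockdown, so almost any 2 members share a sign there. Between the treatments 19 of the 43 were positive. They had the same call in 6, 7 and 7 of 9 pairs, which includes pairs with neither gene called, and 27 and 33 of the 43 tested members were called higher against control in any case. HIST1H2AE and HIST1H2BG, with starts 233 bases apart, were at -0.46 and -0.41 with overexpression and at 1.17 and 1.51 with knockdown. HIST1H2AC and HIST1H2BC were at 0.72 and 0.65 with overexpression and at 1.29 and 1.15 with knockdown. HIST1H2AI and HIST1H2BL were at 1.51 ± 0.23 (called) and 0.42 ± 0.48 (not called) with overexpression. With knockdown they were at 0.33 ± 0.29 and 0.77 ± 0.47 (neither called). HIST1H2BL had only 4 to 17 reads per library. HIST1H2AH and HIST1H2BK were at 1.12 and 0.38 with overexpression, both called, and at 0.45 (not called) and 0.79 (called) with knockdown. The overexpression call of HIST1H2AH was lost without overexpression replicate 1 (0.99) and with DESeq2 (1.10). Differences within a pair were not tested.

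**Figure D4:**
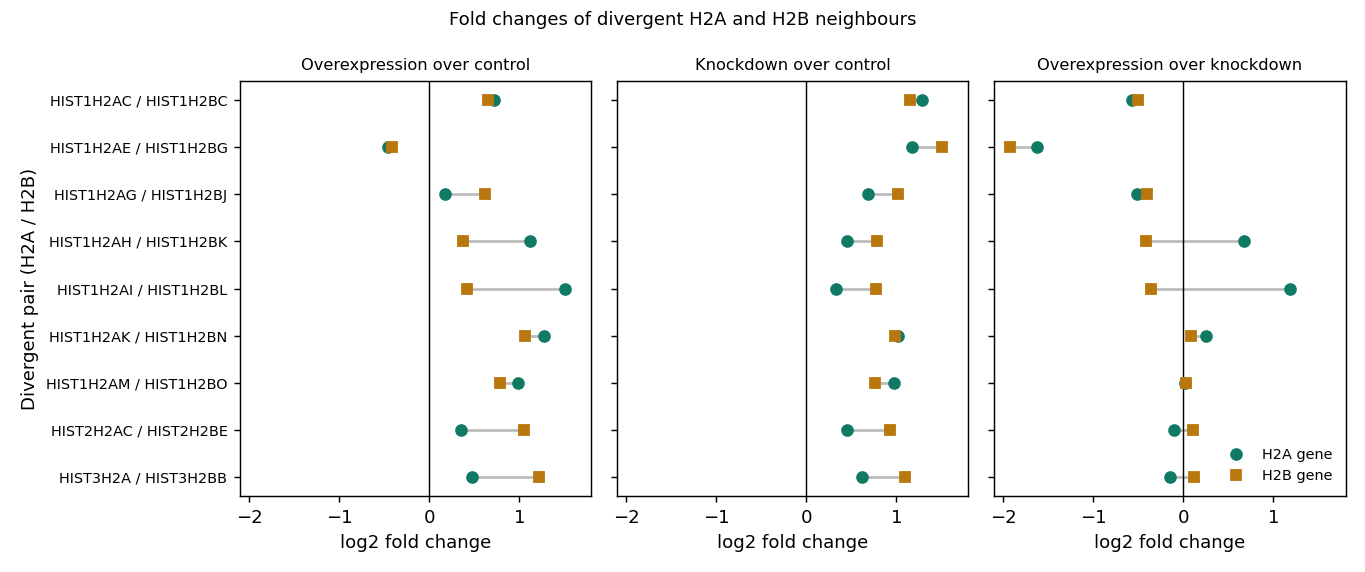
Log2 fold changes of the 9 divergent pairs with both genes tested, H2A genes as circles and H2B genes as squares joined by a line, in each comparison. HIST1H2AE and HIST1H2BG are the one pair left of 0 with overexpression (-0.46 and -0.41), and HIST1H2AI and HIST1H2BL are the widest apart there (1.51 and 0.42).

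The kind of transcript annotated also varied among the members. In 18 members GENCODE lists a transcript that runs at least 200 bases past the stem-loop, and 15 of these were tested, with 377 to 5804 bases beyond it. With knockdown 15 of 15 rose (median 1.09), against 18 of 28 other tested members (median 0.93) and 19.9% of all tested genes. HIST1H2BE, among the 15, passed the filter on low counts through its knockdown libraries alone, so it was tested only because it was high there. With overexpression 8 of 15 rose (median 0.48), against 19 of 28 (median 1.06) and 25.2% of all tested genes. Between the treatments 1 of the 15 was higher and 8 lower with overexpression, against 5 and 4 of the 28. Of all tested genes, 29.3% were higher and 28.1% lower. HIST1H2BE is among the 8. HIST1H1D and HIST1H4B, which passed the filter through their overexpression libraries alone, are among the 5. The filter thus made part of these counts. Without knockdown replicate 2 the knockdown counts were 10 of 15 and 7 of 28, and the counts between the treatments 2 higher and 3 lower of 15, and 4 and 2 of 28. The grouping was made after values had been seen and is incomplete, since 16 of the 28 have no annotated bases past the stop codon, HIST1H1C and HIST1H2BK among them. Another 8 have such bases but no stem-loop match, among them HIST1H2BD with 387 bases. HIST1H1C, HIST1H2BC, HIST1H2BD, HIST1H2BJ and HIST1H2BK, which the next list describes as giving polyadenylated transcripts, are all in the 28. The split is therefore not one of long against short transcripts. Whether the groups differ was not tested.

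A list of 8 members described as giving polyadenylated transcripts held most of the reads (HIST1H1C, HIST1H2AC, HIST1H2BC, HIST1H2BD, HIST1H2BJ, HIST1H2BK, HIST1H4H and HIST2H2BE). They took 77% to 79.2% of histone reads in each library. Their summed level was 364, 372 and 344 CPM with overexpression, 385 and 310 CPM with knockdown, and 191, 186 and 182 CPM in control. The other 65 members summed to 95.5, 98.5 and 91.5 CPM with overexpression, 115 and 87.2 CPM with knockdown, and 54.8, 54.2 and 52.4 CPM in control. Both sets therefore stood above control in every treated library, by 1.93 and 1.77 times with overexpression and 1.86 and 1.88 times with knockdown. The labels do not say whether poly(A) selection was used. RMRP and RPPH1, abundant cellular RNAs without poly(A) tails, had 2 to 19 and 5 to 34 reads per library (named after their values were seen). RPPH1 was higher with knockdown, at 1.25 ± 0.35 (edgeR adjusted p = 0.00795), and RMRP was not called in any comparison. The part of RNA selection in the histone values was not tested.

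Genes that act on histone mRNA were counted beside the histone genes. Of 40 tested, 2 (5%) rose and 14 (35%) fell with overexpression (median -0.09), against 25.2% and 24.1% of all genes. With knockdown 13 (32.5%) rose and 7 (17.5%) fell (median 0.02), against 19.9% and 19.1% of all genes. SLBP, the stem-loop binding protein, named after its values were seen, was lower in both treatments, at -0.15 ± 0.05 (edgeR adjusted p = 0.0132) with overexpression and -0.16 ± 0.05 (edgeR adjusted p = 0.0191) with knockdown. It had 123, 123 and 126 CPM with overexpression, 124 and 121 CPM with knockdown, and 138, 141 and 133 CPM in control, with each treated library below each control library. NXF1, the general mRNA export receptor, had 146, 146 and 131 CPM with overexpression, 258 and 225 CPM with knockdown, and 174, 168 and 169 CPM in control. It was lower with overexpression, at -0.27 ± 0.06 (edgeR adjusted p = 0.00056), and higher with knockdown, at 0.50 ± 0.06 (edgeR adjusted p = 2.13e-06). SRRT, a cap-complex protein also called ARS2, had 194, 206 and 185 CPM with overexpression, 311 and 290 CPM with knockdown, and 241, 234 and 234 CPM in control. It went the same way, at -0.28 ± 0.05 (edgeR adjusted p = 0.000105) and 0.35 ± 0.05 (edgeR adjusted p = 3.79e-05). SNRPD3, a core protein shared by U7 and spliceosomal snRNPs, was at -0.33 ± 0.04 (edgeR adjusted p = 4.69e-06) and -0.14 ± 0.05 (edgeR adjusted p = 0.0242), and NCBP1, a cap-binding subunit, was at -0.28 ± 0.05 (edgeR adjusted p = 3.78e-05) with overexpression and -0.12 ± 0.05 with knockdown (not called).

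Genes of S phase were more often lower than higher. Of 23 tested, 1 (4.35%) rose and 17 (73.9%) fell with overexpression (median -0.18), against 25.2% and 24.1% of all genes. With knockdown 2 (8.7%) rose and 7 (30.4%) fell (median -0.06), against 19.9% and 19.1% of all genes. UHRF1, a factor of maintenance DNA methylation, had 65.1, 68.9 and 65.6 CPM with overexpression, 86.5 and 79.7 CPM with knockdown, and 96.3, 99.3 and 91.7 CPM in control. It was at -0.53 ± 0.05 (edgeR adjusted p = 1.88e-07) with overexpression and -0.20 ± 0.06 (edgeR adjusted p = 0.00984) with knockdown. CHAF1B, a subunit of the CAF-1 histone chaperone, was at -0.47 ± 0.05 (edgeR adjusted p = 6.69e-07) and -0.39 ± 0.06 (edgeR adjusted p = 3e-05). E2F1, a transcription factor of S phase entry, was at -0.18 ± 0.06 (edgeR adjusted p = 0.0127) and -0.61 ± 0.06 (edgeR adjusted p = 2.84e-07), and RRM2, a ribonucleotide reductase subunit, at -0.23 ± 0.05 (edgeR adjusted p = 0.000301) and -0.45 ± 0.05 (edgeR adjusted p = 1.31e-06). All 4 had every treated library below every control library. They were named for the smallest adjusted p against control, so this follows in part from the choice. POLD1, of the same list, went the other way, at 0.37 ± 0.06 with overexpression and 0.34 ± 0.06 with knockdown (both called).

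Of the 30 members that were not tested, 22 had a few reads and 8 had none. The 22 held 307 reads in all over the 8 libraries, and the highest count was 20, for HIST1H2BH in knockdown replicate 2. The 8 with no read were HIST1H2APS1, HIST1H4L and 3 duplicated pairs of the HIST2 cluster, HIST2H2AA3 and HIST2H2AA4, HIST2H3A and HIST2H3C, and HIST2H4A and HIST2H4B. In these pairs 0% to 2.91% of the 50-base words are unique to a member, so a count of 0 says nothing of their expression where reads with several alignments were left out, which the sources used here do not state. Among the tested members the median share of unique words was 96.5%. In the 33 with at least 90%, 19 rose and 0 fell with overexpression, 26 and 0 with knockdown, and 5 were higher and 11 lower between the treatments. The shares over all tested genes were 25.2% higher and 24.1% lower with overexpression, and 19.9% and 19.1% with knockdown. Between the treatments they were 29.3% higher and 28.1% lower.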

How the data were processed

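Stranded TruSeq libraries were made from Trizol-extracted total RNA, per the labels' protocols. The deposited table holds raw read counts by gene symbol, as the authors made them. The submitters' processing notes name build hg19 and the tools TopHat2 2.0.8, HTSeq 0.5.3p9, Trimmomatic 0.22, CASAVA 1.8.2, SAMtools 0.1.18 and edgeR. Whether counting used strand, and what was done with multiply aligned reads, is not given in the sources used here, so close paralogs, overlapping genes and antisense genes may share or lose reads.

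All 8 libraries were fitted together with a mean per group in edgeR 4.0.16 (R 4.3.3). The steps were filterByExpr (count of at least 10 in enough libraries, total of at least 15), TMM, glmQLFit and the two-sided quasi-likelihood F test, with Benjamini-Hochberg adjustment over 15254 genes. Fold changes carry standard errors from this fit, and CPM use TMM-scaled totals. The fit was tested on simulated data. Levels are compared within a gene or as read shares. Replicate pairs differed by more than sampling noise (chi-square per gene 1.88 to 8.01), so each library counted once. DESeq2 1.42.0, limma-voom (limma 3.58.1), other scalings and filters, and leaving out each library were alternatives.

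Members and lists were chosen with earlier results of these data known. Named members are up to 6 tested members per class with the highest mean log2 CPM, the polyadenylated list and the sole tested member of a cluster. From the lists of histone mRNA factors and S phase genes, the 4 with the smallest adjusted p are named. Sequences come from GENCODE 29 and RefSeq GRCh38.p14, a build other than that of the counts, so coordinates are given for these sequences alone.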

Additional observations from a re-analysis of the deposited data

How the results depend on the processing

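Under 19 alternatives per count, the number of members higher with overexpression lay between 21 and 29, the number higher with knockdown between 26 and 33 before any library was left out, and 0 were lower than control in any fit. With one library left out the ranges were 26 to 29 and 17 to 34, the 17 without knockdown replicate 2. Members lower with overexpression than with knockdown numbered 12, 7 with DESeq2 and 5 to 15 with one library left out. Those higher numbered 4 to 7. Same-numbered libraries did not deviate together (correlations of -0.085 to 0.09). With 2 or 3 libraries per group this cannot settle whether same-numbered libraries were prepared together. With the replicate number as a block the counts were 27 higher with overexpression, 31 higher with knockdown, and 5 higher and 11 lower between the treatments. Over 1524 refitted fold changes of members, 1433 stayed called or stayed not called, 71 lost and 20 gained a call. Of the values called in either fit, 0 changed sign. Values called in neither fit could change sign, such as that of HIST1H1D with knockdown, which lay between -2.27 and 0.02. The sum of H1 reads with overexpression was 2.9 times control, and 2.98 times when scaled by library totals. The cause of these shifts was not tested. Knockdown has 2 libraries.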
